A study of Rattus norvegicus with 10 samples.

Results

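Expression of 9 genes that open glycolysis and set its pace was followed in the retina of newborn rats: the hexokinase genes Hk1 and Hk2, the isomerase gene Gpi, the phosphofructokinase subunit genes Pfkl, Pfkm and Pfkp, and the genes Pfkfb2, Pfkfb3 and Pfkfb4. They were chosen by name, with earlier results of these data known. Only probe sets with a single gene symbol in the platform annotation were used. For each gene the probe set with the highest mean over the 10 arrays was taken. Of the 9 genes, 8 had such a probe set, 1 each, among 14324 genes named in this way. Hk1 was not analysed here.

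Hexokinase traps glucose in the cell as glucose 6-phosphate, and Gpi turns that into fructose 6-phosphate. Phosphofructokinase then adds a further phosphate, the committed step of glycolysis, and is a tetramer built from liver-type (Pfkl), muscle-type (Pfkm) and platelet-type (Pfkp) subunits. The Pfkfb enzymes make and remove fructose 2,6-bisphosphate, the strongest activator of phosphofructokinase. The retina is known for making lactate from much of its glucose even where oxygen is at hand, and Hk2, Pfkfb3, Pfkfb4 and Pfkl are textbook targets of the hypoxia-inducible factors.

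The RNA came from retinae at postnatal day 3 of 2 rat strains, F344, described in the design as resistant to oxygen-induced retinopathy, and SD (Sprague Dawley), described as susceptible. In the hyperoxia groups, mothers and litters entered an oxygen chamber within 12 hours of birth and lived in 80% oxygen and 21% oxygen in turn, 24 hours each; controls of the same age stayed in room air. No allele or drug was involved, and the phase of the oxygen cycle at which retinae were taken is not given in the sources used here. F344 was represented by 3 exposed pools and 2 room-air pools, SD by 2 exposed pools and 3 room-air pools. A pool was RNA of 3 rats from 2 litters, read on 1 array, and so averages its animals. All pools are whole retina, in which fewer cells of a type and less RNA per cell cannot be told apart.

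Values are log2 expression per probe set, given to 1 decimal, so a difference of 1 is a doubling of signal and an SD of 0.00 means only equal values at that rounding. Array medians lay between 5.9 and 6, and the precision is limited by how few arrays there were. The labelled tissue was borne out by its markers: the mean of 7 retinal progenitor genes, of 8 listed, lay between 9.13 and 9.46 in every pool. The 2 arrays numbered 3 (pool 3 of exposed F344 and pool 3 of SD in room air) are taken from the numbering to be those the study added later. They stood apart for some of the genes: relative to the other pools of their groups Hk2 was lower there by a log2 change of -0.88 (SE 0.209, limma adjusted p = 0.0143) and Pfkp by -0.33 (SE 0.0971, adjusted p = 0.0397), while Gpi was at -0.05 (SE 0.114). In some cases a term for these arrays in the model changed the call or sign of a gene's change given here, or moved it by over 1.5 times. For the 8 genes the value with that term is then given too. For genes of other lists it is given only in part.

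The 250 bases before the start site of 6 of the genes are shown because 5 of them (Hk2, Gpi, Pfkl, Pfkp and Pfkfb3) lay lower in SD hyperoxia, with Pfkm as 1 of the 3 that did not. Capitals mark each ACGTG or GCGTG, the core of the element bound by hypoxia-inducible factors, searched on both strands, so that CACGT is ACGTG on the other strand. Sequences are from RefSeq, assembly GRCr8, 5′ to 3′ on the gene's strand; all 9 genes were found in that table.
Pfkfb3, chr17:71944683-71944932, plus strand: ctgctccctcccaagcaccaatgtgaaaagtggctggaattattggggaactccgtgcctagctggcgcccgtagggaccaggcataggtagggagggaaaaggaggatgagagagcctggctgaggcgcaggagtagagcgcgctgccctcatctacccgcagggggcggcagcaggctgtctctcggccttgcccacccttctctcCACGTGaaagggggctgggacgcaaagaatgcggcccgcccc
Hk2, chr4:116841276-116841525, minus strand: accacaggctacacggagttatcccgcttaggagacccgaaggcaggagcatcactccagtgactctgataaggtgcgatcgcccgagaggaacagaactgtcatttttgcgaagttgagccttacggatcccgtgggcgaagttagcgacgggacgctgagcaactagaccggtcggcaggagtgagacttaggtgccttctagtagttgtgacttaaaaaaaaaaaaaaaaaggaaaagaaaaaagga
Gpi, chr1:95993262-95993511, minus strand: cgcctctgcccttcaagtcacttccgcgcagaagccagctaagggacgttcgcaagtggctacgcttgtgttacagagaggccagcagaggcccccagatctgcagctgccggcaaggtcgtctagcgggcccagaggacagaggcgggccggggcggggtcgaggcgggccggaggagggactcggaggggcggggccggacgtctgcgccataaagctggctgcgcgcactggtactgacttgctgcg
Pfkl, chr20:10663715-10663964, plus strand: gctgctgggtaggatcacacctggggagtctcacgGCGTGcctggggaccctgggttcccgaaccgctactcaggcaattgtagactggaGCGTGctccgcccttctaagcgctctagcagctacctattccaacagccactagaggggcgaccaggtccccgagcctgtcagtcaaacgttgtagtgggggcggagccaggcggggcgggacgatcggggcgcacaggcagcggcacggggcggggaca
Pfkp, chr17:68639563-68639812, plus strand: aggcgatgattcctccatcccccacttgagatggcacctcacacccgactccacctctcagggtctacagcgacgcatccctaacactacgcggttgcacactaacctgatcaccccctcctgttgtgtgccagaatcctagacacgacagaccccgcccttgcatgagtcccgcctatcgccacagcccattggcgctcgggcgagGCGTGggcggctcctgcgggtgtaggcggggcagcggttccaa
Pfkm, chr7:131113849-131114098, plus strand: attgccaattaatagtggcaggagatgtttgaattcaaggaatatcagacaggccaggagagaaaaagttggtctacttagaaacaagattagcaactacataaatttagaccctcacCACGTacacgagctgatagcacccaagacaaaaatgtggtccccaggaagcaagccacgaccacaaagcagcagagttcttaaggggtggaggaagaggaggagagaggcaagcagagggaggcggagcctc
Pfkfb3 holds ACGTG on both strands in 1 overlapping stretch that begins at -42, counting back from the start site. Pfkl holds GCGTG at -215 and -160, Pfkp at -43, and Pfkm holds ACGTG on the other strand at -132. These letters were not found in the windows of Hk2 and Gpi, nor in those of Pfkfb2 and Pfkfb4, the others that stayed near 0. Of all 33469 windows of 250 bases in the table, 16.6% held ACGTG, 25.9% GCGTG and 36.7% at least 1 of them, so a match in a window is common and marks no site.

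The first question was what cyclic hyperoxia did to these genes in SD, the susceptible strain. Hk2, the isomerase gene, the liver-type and platelet-type subunit genes and Pfkfb3 all lay lower in hyperoxia. Every exposed pool lay below every room-air pool in 5 of the 8 genes, against 7.34% of all genes. Pfkm, Pfkfb2 and Pfkfb4 stayed within 0.12 of 0 on the log2 scale. By limma 0 of the 8 passed an adjusted p of 0.05 in either direction, as did 0.0489% of all genes toward lower values. At an unadjusted p under 0.05, 5 of the 8 were lower and 0 higher, against 2.95% of all genes lower. The median change of the 8 was -0.53, and that of all genes 0.00.

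Hk2, the inducible hexokinase that binds to mitochondria, stood at 6.5 and 6.6 in the SD hyperoxia pools and at 8.1, 8.1 and 7.3 in room air. The groups did not overlap, and room-air pool 3 was the lowest of its group. The log2 change was -1.28 (SE 0.349, 95% interval -2.04 to -0.52, 2.43-fold lower, adjusted p = 0.746). With a term for the arrays numbered 3 it was -1.58 (adjusted p = 0.0204, and between 0.0204 and 0.969 over 20 alternatives).

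Pfkfb3, the isoform with the highest kinase over phosphatase activity, had the lowest change of the 8 genes with all pools in the model; with a term for the arrays numbered 3 Hk2 was lower. It stood at 7.0 and 7.2 in hyperoxia and at 8.6, 8.6 and 8.3 in room air, and the groups were far apart relative to their spread. The change was -1.40 (SE 0.241, 95% interval -1.92 to -0.88, 2.64-fold lower, adjusted p = 0.12). It passed with the term for the arrays numbered 3 (-1.49, adjusted p = 0.0271) and without F344 hyperoxia pool 2 (-1.40, adjusted p = 0.0052), a pool that enters this comparison only through the shared estimate of spread. Over 20 alternatives its adjusted p ran from 0.0052 to 0.969.

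Pfkl stood at 9.0 in both SD hyperoxia pools and at 9.8, 10.1 and 9.6 in room air. Its change was -0.83 (SE 0.156, 95% interval -1.17 to -0.49, 1.78-fold lower, adjusted p = 0.187), and -0.93 with the term for the arrays numbered 3 (adjusted p = 0.0146, and between 0.0146 and 0.969 over 20 alternatives). Gpi, with 10.8 and 10.9 against 11.4, 11.6 and 11.4, was at a change of -0.62 (SE 0.127, adjusted p = 0.287). Pfkp, with 10.5 in both exposed pools against 11.0, 11.1 and 10.7, was at -0.43 (SE 0.146, adjusted p = 0.815). For these 3 genes too the exposed pools lay below all room-air pools, for Pfkp by 0.2 at the nearest, the distance to room-air pool 3.

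Pfkm, Pfkfb2 and Pfkfb4 overlapped between the SD groups. Pfkm was at 8.6 in both exposed pools and between 8.4 and 8.8 in room air, a change of 0.03 (95% interval -0.24 to 0.31), and -0.01 with the term for the arrays numbered 3. Pfkfb2, the isoform known from heart, was at 0.12 (95% interval -0.15 to 0.39), and at 0.04 with that term. Pfkfb4 was at -0.05 (95% interval -0.35 to 0.25), and at -0.13 with the term. These intervals leave room for small changes in either direction, so the 3 genes are not shown to be unaffected.

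**Figure D1:**
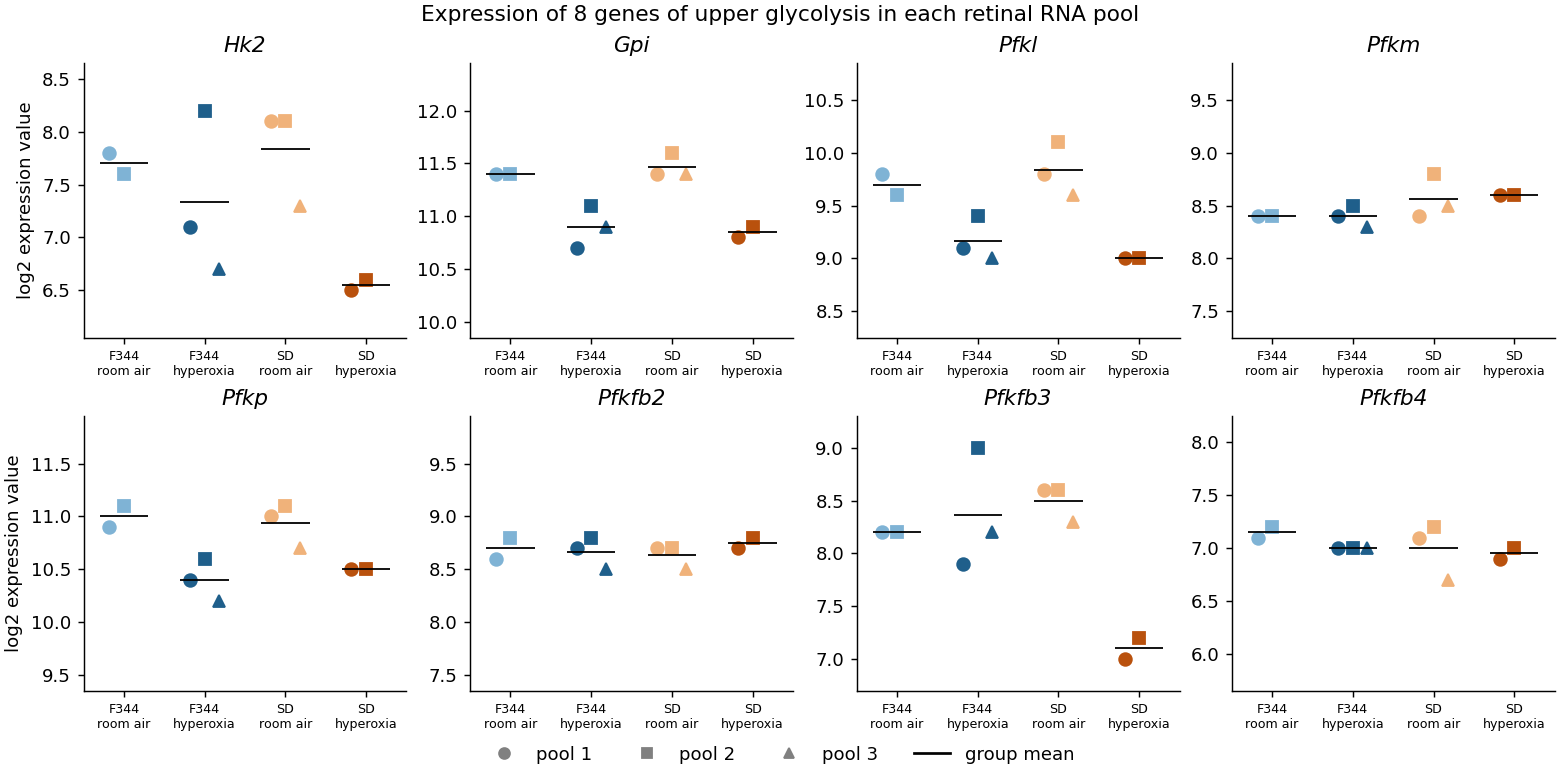
The plot of expression by pool shows the log2 value (vertical axis, the same span in every panel) of 8 genes in the 4 groups, with 1 symbol per pool (circle, square and triangle for pools 1, 2 and 3) and a bar at the group mean. The SD hyperoxia pools of Pfkfb3 (7.0 and 7.2) and Hk2 (6.5 and 6.6) lie below all other pools, and F344 hyperoxia pool 2 is the highest pool of both genes (9.0 and 8.2).

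In F344, the resistant strain, the isomerase and the liver-type and platelet-type subunits were again lower in every hyperoxia pool than in any room-air pool, while Hk2 and Pfkfb3 overlapped between the groups. Pfkfb4 made up the fourth gene of 8 without overlap, against 6.32% of all genes. By limma 0 of the 8 passed, as did 0.00698% of all genes toward lower values, and 3 of the 8 were lower at an unadjusted p under 0.05 and 0 higher, against 2.19% of all genes lower. The median change of the 8 was -0.26, and that of all genes 0.00.

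Pfkp stood at 10.4, 10.6 and 10.2 in F344 hyperoxia and at 10.9 and 11.1 in room air, a change of -0.60 (SE 0.146, 95% interval -0.92 to -0.28, 1.52-fold lower, adjusted p = 0.921). Pfkl stood at 9.1, 9.4 and 9.0 against 9.8 and 9.6, a change of -0.53 (SE 0.156, adjusted p = 0.921). Gpi stood at 10.7, 11.1 and 10.9 against 11.4 in both room-air pools, a change of -0.50 (SE 0.127, adjusted p = 0.921). In each of the 3 genes exposed pool 2 lay nearest to room air. Pfkfb4 was at 7.0 in all 3 exposed pools and at 7.1 and 7.2 in room air, a gap of 1 rounding step and a change of -0.15 (95% interval -0.45 to 0.15), or -0.07 with the term for the arrays numbered 3.

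Hk2 varied more among the F344 hyperoxia pools than between the F344 groups. It stood at 7.1, 8.2 and 6.7 in hyperoxia, an SD of 0.78, and at 7.8 and 7.6 in room air. Pool 2 lay above both room-air pools and the others below both. The change was -0.37 (SE 0.349, 95% interval -1.13 to 0.39, adjusted p = 0.924), and it was -0.80 without pool 2, -0.07 with the term for the arrays numbered 3 and -0.05 without both of them.

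Pfkfb3 was likewise high in pool 2, with 7.9, 9.0 and 8.2 in F344 hyperoxia against 8.2 in both room-air pools. The change was 0.17 (SE 0.241, 95% interval -0.36 to 0.69, adjusted p = 0.947). Without pool 2 it turned to -0.15, without pool 1 it was 0.40, and with the term for the arrays numbered 3 it was 0.26. The sign in F344 thus rests on pool 2.

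Relative to the F344 room-air mean, pool 2 of F344 hyperoxia was at 0.50 for Hk2 and 0.80 for Pfkfb3, but at -0.30 for Gpi, -0.30 for Pfkl and -0.40 for Pfkp. Pool 1 was at -0.60 for Hk2 and -0.30 for Pfkfb3, and pool 3 at -1.0 for Hk2 and 0.00 for Pfkfb3. Relative to the SD room-air mean, the SD hyperoxia pools were at -1.33 and -1.23 for Hk2 and at -1.50 and -1.30 for Pfkfb3.

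**Figure D2:**
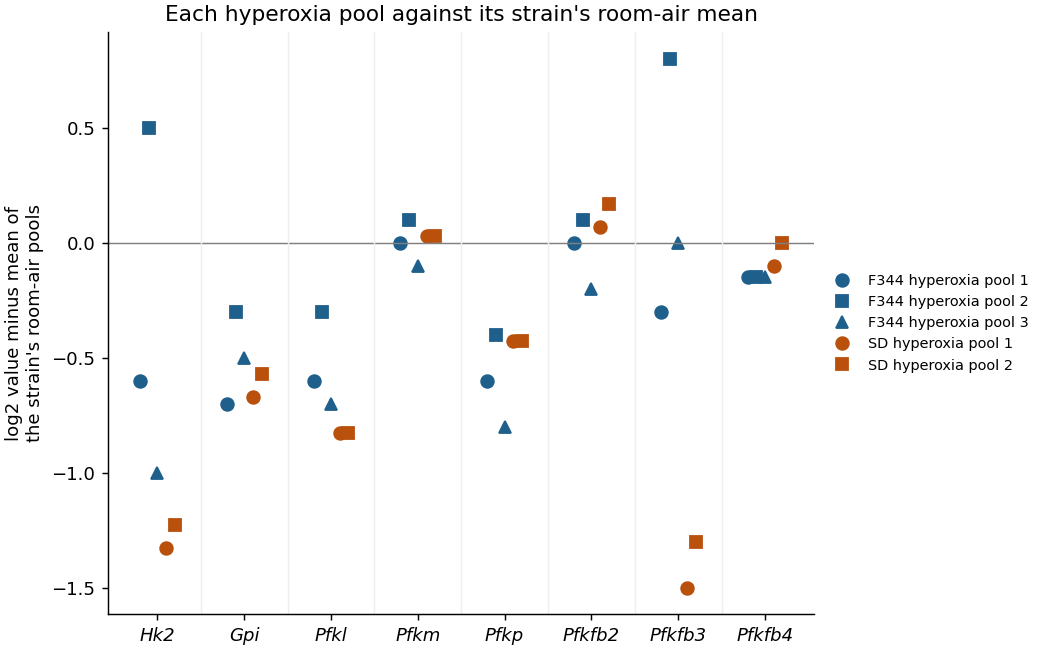
The plot of each hyperoxia pool against its strain's room-air mean shows the log2 difference (vertical axis) for 8 genes, with blue symbols for the 3 F344 pools and orange symbols for the 2 SD pools. Gpi, Pfkl and Pfkp lie below 0 in all 5 pools, and F344 pool 2 lies above 0 for Hk2 (0.50) and Pfkfb3 (0.80).

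Averaged over both strains, 0 of the 8 genes passed by limma, as did 0.0628% of all genes toward lower values. The closest were Pfkl at -0.68 (SE 0.111, 95% interval -0.92 to -0.44) and Gpi at -0.56 (SE 0.0898, 95% interval -0.75 to -0.36), with an adjusted p of 0.0711 each, followed by Pfkp at -0.52 (SE 0.103, adjusted p = 0.224). Pfkfb3 was at -0.62 (SE 0.171, adjusted p = 0.77) and Hk2 at -0.83 (SE 0.247, adjusted p = 0.91). At an unadjusted p under 0.05, 5 of the 8 were lower and 0 higher, against 2.28% of all genes lower. With the term for the arrays numbered 3, Pfkl (adjusted p = 0.00624), Pfkp (0.0103) and Gpi (0.0183) fell. Without F344 hyperoxia pool 2, Pfkfb3 (-0.78, adjusted p = 0.0326), Gpi (0.0404) and Pfkl (0.0438) fell, and without SD room-air pool 3, Pfkl did (-0.74, adjusted p = 0.0297). Most alternatives gave no call: of 19, Pfkl passed in 7, Gpi in 6, Pfkp in 3 and Pfkfb3 in 1. Without both arrays numbered 3 these genes did not pass by limma (adjusted p = 0.148 for Pfkl, 0.16 for Pfkp, 0.23 for Gpi and 0.707 for Pfkfb3). Gpi, Pfkl and Pfkp were the 3 of 8 genes with no overlap in either strain, and 0.545% of all genes had that pattern.

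**Figure D3:**
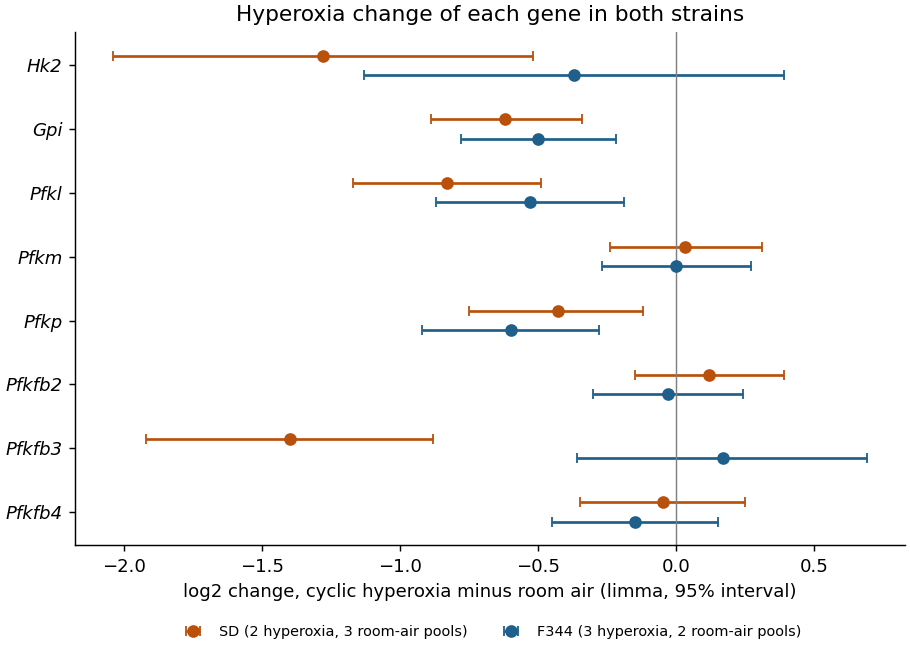
The plot of the hyperoxia change of each gene shows the log2 change with its 95% interval by limma (horizontal axis) for SD (orange) and F344 (blue). For Gpi, Pfkl and Pfkp both strains lie below 0, for Pfkm, Pfkfb2 and Pfkfb4 both intervals span 0, and for Pfkfb3 SD (-1.40) and F344 (0.17) lie apart.

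Whether the strains responded differently was tested as the SD change minus the F344 change. None of the 8 genes passed by limma, nor did any other gene (0% of all), and 1 of the 8 had an unadjusted p under 0.05, against 6.98% of all genes. That gene was Pfkfb3, with a difference of -1.57 (SE 0.341, 95% interval -2.31 to -0.82, adjusted p = 0.651), which was -1.25 without F344 hyperoxia pool 2. For Hk2 the difference was -0.92 (95% interval -1.99 to 0.16, adjusted p = 0.662), and it was -0.48 without that pool and -1.50 with the term for the arrays numbered 3 (95% interval -2.24 to -0.76, adjusted p = 0.609). For Pfkl it was -0.30 (95% interval -0.78 to 0.18), and -0.50 with that term (95% interval -0.91 to -0.09, adjusted p = 0.731). For Pfkp it was 0.17 (95% interval -0.28 to 0.62), and it turned to -0.05 with the term (95% interval -0.39 to 0.29). For Gpi it was -0.12 (95% interval -0.51 to 0.27). These intervals do not show that the strains responded alike. They also take the pools as independent, though same-numbered pools of exposed F344 and SD room air deviated together (r of 0.314, 0.397 and 0.643).

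In hyperoxia, Pfkfb3 was lower in SD than in F344 by 1.27 on the log2 scale, with the change coded as -1.27 (SE 0.241, 95% interval -1.79 to -0.74, 2.41-fold, adjusted p = 0.0442), and with the model of 1 mean per group this was the only one of the 8 genes to pass in any of the 6 comparisons. Toward lower values in SD 0.237% of all genes passed. Both SD pools (7.0 and 7.2) lay below the 3 F344 pools (7.9, 9.0 and 8.2). The call held in 9 of 20 alternatives (adjusted p 0.0096 to 0.667, change -1.50 to -0.95). It ended without both arrays numbered 3 (-1.35, adjusted p = 0.183). It held without F344 hyperoxia pool 1, F344 hyperoxia pool 2 (-0.95, adjusted p = 0.0264) or SD room-air pool 3, and ended without each of the other 7 pools. Hk2 was next at -0.78 (SE 0.349, adjusted p = 0.729), at -0.35 without F344 hyperoxia pool 2, at -1.08 with the term for the arrays numbered 3 (adjusted p = 0.0522) and at -1.10 without F344 hyperoxia pool 3; these were the 2 of 8 genes lower in SD at an unadjusted p under 0.05, against 3.22% of all genes.

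In room air no difference between the strains was detected for the 8 genes. None passed by limma, against 0.552% of all genes in either direction, and 0 had an unadjusted p under 0.05, against 11.4% of all genes. Changes coded as SD minus F344 ran from -0.15 for Pfkfb4 (95% interval -0.45 to 0.15) to 0.30 for Pfkfb3 (95% interval -0.22 to 0.82). With the term for the arrays numbered 3, Hk2 moved from 0.13 to 0.43 (95% interval -0.07 to 0.92, adjusted p = 0.436), Pfkl from 0.13 to 0.23 and Pfkfb4 to -0.07. Both strain comparisons share pools with the hyperoxia changes above and are not separate evidence.

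Ordered by group mean, Hk2, Gpi and Pfkl ran from SD room air (7.83, 11.47 and 9.83) through F344 room air (7.70, 11.40 and 9.70) and F344 hyperoxia (7.33, 10.90 and 9.17) to SD hyperoxia (6.55, 10.85 and 9.0). For Gpi and Pfkl the room-air groups overlapped each other, the hyperoxia groups overlapped each other, and there was a gap between them. For Hk2 the one gap lay between F344 and SD hyperoxia. Pfkfb3 ran from SD room air (8.50) through F344 hyperoxia (8.37) and F344 room air (8.20) to SD hyperoxia (7.10), and only the last step had no overlap. Pfkp ran from F344 room air (11.00) through SD room air (10.93) and SD hyperoxia (10.50) to F344 hyperoxia (10.40), again with its gap between room air and hyperoxia.

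Over the 10 arrays, the lower genes varied together, as a description that includes the group differences and the arrays numbered 3. Pearson's r was 0.95 between Gpi and Pfkl, 0.90 between Pfkl and Pfkp, 0.89 between Gpi and Pfkp, and 0.87 between Hk2 and Pfkfb3, and without the arrays numbered 3 these were 0.96, 0.91, 0.96 and 0.98. Over all arrays it was lower between Pfkfb3 and Pfkp (0.42) and between Pfkfb3 and Gpi (0.61). After each group's mean was taken away, r was 0.70 between Gpi and Pfkl, 0.75 between Pfkl and Pfkp, 0.51 between Gpi and Pfkp and 0.85 between Hk2 and Pfkfb3, while Pfkfb3 and Gpi were at 0.88 and Pfkfb3 and Pfkp at 0.62. The pair Pfkp and Pfkfb2 was at 0.28 before and 0.93 after this step, on small ranges given to 1 decimal. Without the arrays numbered 3, and with group means kept, that pair was at -0.16. Taking away group means leaves any shift of the arrays numbered 3 in place, so all r values after this step still carry it. By limma that shift was -0.33 for Pfkp and -0.23 for Pfkfb2 (adjusted p = 0.13).

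The genes most like each of the 8 over the same 10 arrays were named by the highest r among 14324 genes. Values picked as the highest of so many run high on 10 arrays. Pfkfb2, with a range of only 0.3, reached 0.96 too, so they serve as a description and were not tested. For Gpi they were Aldoa (0.97), the aldolase gene of the next steps of glycolysis, Slc16a3 (0.96), the exporter of lactate, and Tpi1 (0.95), triosephosphate isomerase. Pfkl was closest to Slc2a1 (0.97), the main glucose transporter of vessels and retina, Aldoa (0.96) and P4ha2 (0.96), a collagen prolyl hydroxylase. Hk2 was closest to Ero1a (0.96), an oxidase of the endoplasmic reticulum, Gpr146 (0.96) and Kdm3a (0.94), a histone demethylase. For Pfkfb3 they were P4ha1 (0.97), Jmjd6 (0.96) and Rnf113a1 (0.93), and for Pfkp they were Pkm (0.96), the pyruvate kinase gene, Asic1 (0.95) and Snx25 (0.95). Pfkm was closest to Mbd1 (0.95), Anks1a (0.95) and Mfge8 (0.94), and Pfkfb2 to Slc5a3, Plxna3 and Cpox (0.96 each). Pfkfb4 was closest to Arhgap12 (0.95), Tafazzin (0.92) and Srgap2 (0.92). No enzyme of glycolysis was among the genes named for Hk2, Pfkfb3, Pfkm, Pfkfb2 or Pfkfb4. Without the arrays numbered 3, r was 0.88, 0.91 and 0.87 for Pfkfb2, and 0.88, 0.87 and 0.82 for Pfkfb4. For the other members it stayed at 0.93 or above.

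The rest of glucose metabolism was read from lists of named genes. Of 13 measured genes of lower glycolysis, 0 passed in SD or in F344. In SD 11 lay below 0 and 5 were lower at an unadjusted p under 0.05 (median -0.23), and in F344 10 lay below 0 and 4 were lower at that threshold, with 1 higher (median -0.15). Of all genes, 46% lay below 0 in SD and 48.2% in F344, and 2.95% and 2.19% were lower at that threshold. Tpi1 was at -0.75 (SE 0.148, adjusted p = 0.22) and Aldoa at -0.62 (SE 0.122, adjusted p = 0.22) in SD. In F344, Pgk1, phosphoglycerate kinase, was at -0.63 (SE 0.198) and Aldoa at -0.50 (SE 0.122), with an adjusted p of 0.921 each.

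Of 8 genes for the transport of glucose and the making and export of lactate, 1 fell in SD by limma, against 0.0489% of all genes. The median was -0.20 in SD and -0.10 in F344. The gene that fell was Slc16a3, which was at 6.8 and 7.3 in SD hyperoxia and at 9.0, 9.2 and 8.9 in room air, a change of -1.98 (SE 0.243, adjusted p = 0.0149). The call held in 12 of 20 alternatives (adjusted p 0.00127 to 0.792, change -2.23 to -1.73) and in 4 of the 10 fits that left out 1 pool; it ended without pool 1 or pool 2 of F344 room air, of SD hyperoxia or of SD room air. In F344 none passed, and Slc16a3 was at -0.95 (SE 0.243, adjusted p = 0.921) and Ldha, lactate dehydrogenase, at -0.40 (SE 0.141, adjusted p = 0.921). Averaged over both strains Slc16a3 passed by limma at -1.47 (SE 0.172, adjusted p = 0.0116), as did 0.0628% of all genes toward lower values. That average shares its pools with the SD change, and its alternatives are not given here. Slc2a1 was at -0.50 (SE 0.131, adjusted p = 0.647) in SD.

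The remaining lists hold genes that run against or beside the upper steps. Of 7 measured genes among other hexokinases, the remaining Pfkfb gene and the opposing phosphatases, 0 passed in either strain (median 0.05 in SD and -0.03 in F344). Tigar, which lowers fructose 2,6-bisphosphate, was at 0.30 in SD (SE 0.108, adjusted p = 0.815), and Pfkfb1 at -0.15 in F344 (SE 0.136, adjusted p = 0.921, and -0.05 with the term for the arrays numbered 3). Of 5 genes of the pentose phosphate branch, which draws on glucose 6-phosphate, 0 passed, with a median of -0.20 in SD and 0.13 in F344, and 2 were lower at an unadjusted p under 0.05 in SD and 0 in F344; Pgls was at -0.52 in SD (SE 0.123, adjusted p = 0.509). Of 9 genes of other uses of hexose phosphates 0 passed (median 0.05 in SD and 0.13 in F344). Here 2 were lower at an unadjusted p under 0.05 in SD, and 1 lower and 1 higher in F344. Of all genes, 2.95% were lower at that threshold in SD and 2.19% in F344. The glycogen synthase gene Gys1 was at -0.52 in SD (SE 0.159, adjusted p = 0.815). In F344 the largest change was a rise, Mpi at 0.42 (SE 0.139, adjusted p = 0.921), followed by Pgm1 at -0.38 (SE 0.148, adjusted p = 0.921). The 3 Vdac genes, whose channels are where hexokinase docks on mitochondria, ran from -0.08 to 0.10 in SD. In F344 Vdac1 was at -0.28 (SE 0.179) and Vdac2 and Vdac3 at 0.13 each, and 0 of the 3 passed in either strain. For Vdac1, SD room-air pool 3 stood at 10.5, against 11.2 and 11.1 in pools 1 and 2.

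**Figure D4:**
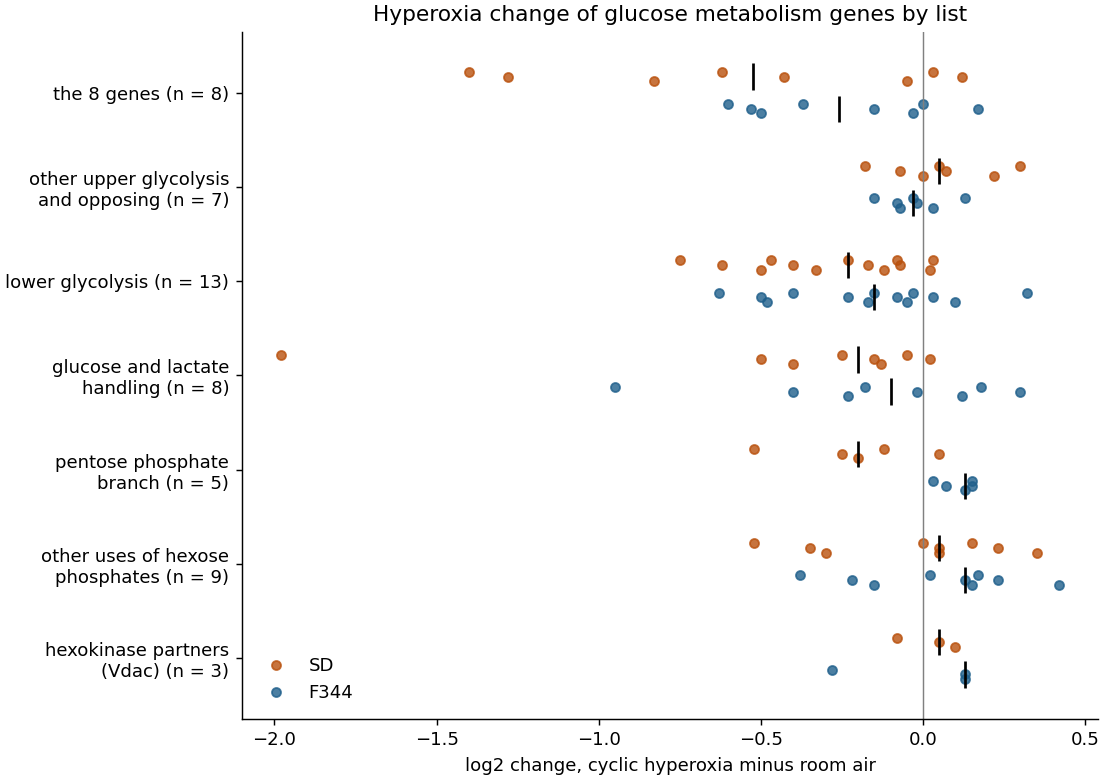
The plot of glucose metabolism genes by list shows the log2 change in hyperoxia (horizontal axis) of each gene, with orange points for SD, blue points for F344 and a black bar at each median. The 8 genes have medians of -0.53 in SD and -0.26 in F344, and Slc16a3 is the point at -1.98.

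Markers of vessel cells, and the list mean of astrocyte markers, also lay lower in hyperoxia, though 0 of these markers passed by limma in either strain. All 8 of 8 endothelial markers lay below 0 in both strains, with medians of -0.40 in SD and -0.37 in F344, and 6 in SD and 5 in F344 had an unadjusted p under 0.05. Their mean level ran from 4.99 to 5.12 in SD hyperoxia against 5.28 to 5.75 in SD room air, and from 5.05 to 5.20 in F344 hyperoxia against 5.26 to 5.54 in F344 room air. Of 6 measured pericyte and smooth muscle markers, 6 lay below 0 in SD and 4 in F344, with means of 5.57 to 5.77 and 5.60 to 5.75 in hyperoxia against 5.78 to 6.13 and 5.85 to 5.90 in room air. At an unadjusted p under 0.05, 2 of these 6 were lower in SD and 3 in F344. The mean of 4 measured astrocyte markers, of 5 listed, was 5.15 to 5.28 against 5.33 to 5.38 in SD, without overlap. In F344 it was 5.20 to 5.25 against 5.30 to 5.35, again without overlap. All endothelial and astrocyte means lay below the lowest array median of 5.9, while pericyte and smooth muscle means reached 6.13 in SD room air. Of the 4 astrocyte markers, 4 lay below 0 in SD (median -0.14) and 3 in F344 (median -0.04). At an unadjusted p under 0.05, 0 of the 4 were lower in SD and 1 in F344. Beside these marker counts, 2.95% of all genes were lower at that threshold in SD and 2.19% in F344. Of all genes, 46% lay below 0 in SD and 48.2% in F344. Log2 array values have no zero that would show a marker to be absent. The part of these cells in the lower values of the glycolytic genes was not tested.

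Skeletal muscle markers, checked because Pfkm is the muscle-type subunit, had a mean between 5.14 and 5.33 in every pool (7 of 9 measured), with medians of -0.03 in SD and -0.05 in F344. Photoreceptor markers (6 of 9 measured) lay higher in F344 hyperoxia than in F344 room air, with list means of 10.08 to 10.63 against 9.75 to 9.87, and overlapped in SD, with 10.13 to 10.23 against 9.97 to 10.67. Pigment epithelium markers (6 of 7 measured) ran from 6.17 to 6.42 against 5.90 to 5.97 in F344 and from 6.07 to 6.47 against 5.90 to 6.32 in SD. Their part in the results was not tested.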

How the data were processed

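Each of the 10 arrays held labelled total RNA of 1 retinal pool of 3 rats. The deposited values are log2 expression per probe set, given to 1 decimal. RMA and Partek 6.4 are named, with no role or order, per the submitters' processing notes; the sources used here do not say how background, scaling and annotation were handled. The table held 27342 probe sets, of which 15097 had 1 gene symbol in the platform annotation, 323 several and 11922 none there; 499 genes had several probe sets. Current symbols came from a gene table of GRCr8.

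In R 4.3.3 with limma 3.58.1, all probe sets of all 10 arrays were fitted with 1 mean for each group, which left 6 residual degrees of freedom. Default eBayes followed, two-sided. The p-values were adjusted by Benjamini-Hochberg across the 27342 probe sets and called under 0.05. Standard errors and 95% intervals are from that fit. No 2 arrays held identical values. The script was tested on simulated data.

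The 9 genes, the lists of other genes and the cell type markers were chosen with earlier results of these data known. Named were all 9 genes, per list every gene that passed and the largest changes, and the 3 genes most correlated with each member over 10 arrays. Other genes in the text were picked after seeing their values. The titles label the pools of a group as biological replicates. They do not state whether pools share rats or litters.

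The alternatives were a term for the arrays numbered 3, leaving those or each array out, the replicate number as a block, trend and robust eBayes, quantile normalization, median centring, array weights, the brighter part of the probe sets, 1 value per gene and only the groups compared. Those on the counts of genes without overlap and on the genes named from other lists were added after seeing the data.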

Additional observations from a re-analysis of the deposited data

How the results depend on the processing

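Under 20 alternatives (19 for the difference and the average), the counts of the 8 genes that passed moved as follows. In SD the count was 0, and it was 3 with the term for the arrays numbered 3, 3 with the replicate number as a block and 2 with array weights; leaving out single pools gave 0 to 1. Averaged over both strains it was 0, and it was 3 with that term, 3 with the block, 3 with array weights, 2 with trend and robust eBayes and 2 with 1 averaged value per gene; leaving out single pools gave 0 to 3. For SD against F344 in hyperoxia it was 1, and it was 0 without both arrays numbered 3, 0 with trend and robust eBayes, 0 with the brighter probe sets and 0 with only the groups compared; leaving out single pools gave 0 to 1. The cause was not tested. In F344, for the difference of the effects and for the strains in room air, the count was 0 throughout. Counts of the 8 genes without overlap were 5 to 6 in SD, against 7.16% to 15.7% of all genes under the same alternatives, and 4 to 5 in F344, against 4.87% to 16.5%.

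Hk2, Gpi, Pfkl, Pfkp and Pfkfb3 lay below 0 in SD under all 20 alternatives, and Hk2, Gpi, Pfkl and Pfkp in F344 too. Of 944 alternative values of single genes, 36 that were called in neither fit turned sign, and 0 turned sign with a call. Same-numbered pools of hyperoxia and room air did not deviate together in SD (r = -0.056 and -0.0225) or, in both pairs, in F344 (-0.0161 and 0.108). The numbers were therefore not taken as pairs. Exposed F344 and SD in room air did deviate together (0.314, 0.397 and 0.643). They were not compared directly, but both enter the difference of the effects with the same sign. A shared deviation adds up in that difference, and the intervals given for it do not allow for this. Over all groups 4 of 13 pairs were over 0.1. Deviations from a group mean cancel out within the group. These r values are thus not separate checks, and they are a weak basis for that choice. With the block, Hk2 (adjusted p = 0.0402), Pfkl (0.0338) and Pfkfb3 (0.0363) passed in SD. With groups of 2 and 3 pools, a gene that did not pass is not shown to be unchanged, and signal over background of single probe sets was not analysed here.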
